A study of Mus musculus with 4 samples.

Results

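Complement is a cascade of plasma and tissue proteins that tags particles and dying cells, and 9 of its genes were followed here through bleomycin-treated mouse skin. They were chosen by name, as the rows of the expression table for the subunits of the recognition protein C1q (C1qa, C1qb, C1qc), the cascade components C4b, C3, Cfb and Cfp, and the anaphylatoxin receptors C3ar1 and C5ar1. All 9 were found among the 24441 genes of the table, and all 9 had at least 1 FPKM in at least 2 libraries, the level required for a test.

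The series compared skin RNA of GSDMD KO mice (genotype GSDMD-/-) and wild-type (WT) mice, with 2 libraries of each genotype. All animals were described as female C57BL/6 mice at 8 postnatal weeks, and both genotypes received bleomycin (BLM), a cytotoxic antibiotic that causes local fibrosis, under the skin every other day over 28 days as a model of scleroderma. The KO mice lack gasdermin D, the protein whose cleaved fragment forms membrane pores in pyroptosis, and were purchased animals made by injecting Cas9 mRNA and guide RNA into C57BL/6 zygotes. No libraries of skin without BLM were analysed here, so the values compare genotypes under BLM and not a response to BLM.

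C1q binds immune complexes and cell debris and starts the classical pathway, in which C4 and C2 are cleaved to build an enzyme that cleaves C3. The alternative pathway amplifies this step with factor B (Cfb), factor D (Cfd) and properdin (Cfp), and the small fragments C3a and C5a recruit and activate leukocytes through C3ar1 and C5ar1. The liver supplies most plasma complement, but tissue macrophages are a major source of C1q, and adipocytes are the main source of factor D.

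The libraries did not stand at equal distances from each other. The first principal component of the 13027 tested genes held 74.1% of the variance and placed the WT libraries at -27.7 and -53.9, KO replicate 1 at 6.17 and KO replicate 2 at 75.4. Gsdmd had 14.0 and 18.2 FPKM in WT skin, against 3.53 and 2.26 FPKM in KO skin, and the groups did not overlap. In the library labelled KO replicate 2, 4 Y-linked genes were at 0.0823 to 1.28 FPKM, whereas they were listed at 0 in the other 3 libraries, all from mice labelled female. The keratin gene Krt14 stood at 1214 FPKM or more in every library, a defining gene of skin, and the skeletal muscle gene Acta1 at 3728 FPKM or more. FPKM values of a library summed to 448544 to 462251, and 1 fragment on 1 kb of transcript was worth about 0.0575 to 0.0783 FPKM. No source ties each library to 1 animal, so the p-values measure the spread between these libraries.

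The members were lower in KO skin on average, and 1 library set the size of the difference. KO replicate 2 was below both WT libraries for 9 of 9 members, at 1.84% to 7.64% of the WT mean. KO replicate 1 was below both for 7 of 9, at 26.4% to 76.1% of the WT mean, with C3 and C4b between the WT values. The groups therefore did not overlap for 7 members, against 20.5% of all tested genes that lay lower without overlap. The fold change was below 0 for 9 of 9 members (median -2.70 on the log2(FPKM + 1) scale), but relative to the median level of the macrophage markers C4b reversed, and relative to that of the adipocyte markers C4b and Cfp reversed. These reversed values, 0.16 to 0.61, were smaller than their standard errors, 1.39 to 2.59. Relative to the fibroblast or the skeletal muscle markers, all members stayed below 0. Over all tested genes the median was 0.11, moving to 0.01 with median-ratio factors, and 41.4% were below 0.

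With limma and Benjamini-Hochberg adjustment over all tested genes, 0 of 9 members passed an adjusted p of 0.05 with an absolute log2 fold change above 1, as did 0% of all genes. At an unadjusted p under 0.05 with a log2 fold change under -1, the members C1qb, C3ar1 and C5ar1 passed, or 3 of 9, against 4.14% of all genes. C1qb stood close to that limit (unadjusted p = 0.0487 by limma). It missed the limit, at unadjusted p = 0.0508 to unadjusted p = 0.0775 by limma, under both other pseudocounts, both other filters and scaling of the libraries to an equal sum. The smallest adjusted p over all genes was 0.190, and an exact permutation test of 2 against 2 libraries cannot go below p = 0.333. Without KO replicate 2, 0 members passed the adjusted threshold and the median was -0.95. Without KO replicate 1, 9 passed and the median was -4.42, and 2058 genes were called in all. Either fit with a lone KO library assumes that it varies like the WT libraries.

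**Figure D1:**
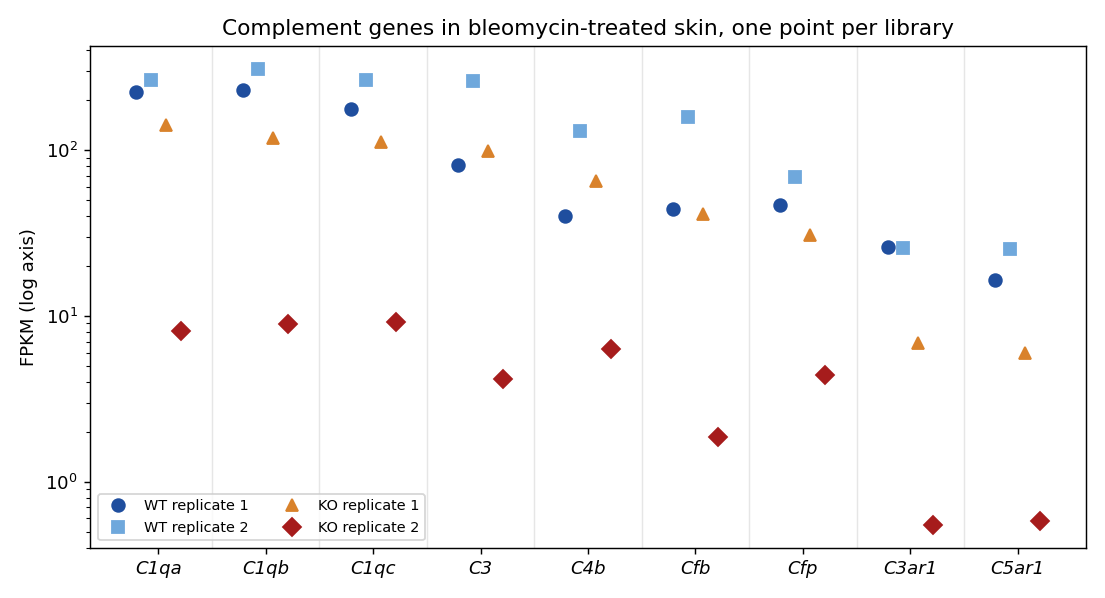
FPKM of the 9 complement members on a log axis, with 1 point for each of the 2 WT and 2 KO libraries. KO replicate 2 is the lowest point for every gene, and KO replicate 1 lies below both WT points for all members but C3 and C4b.

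The C1q genes were the highest members in every library. C1q is built from A, B and C chains, and the 3 genes lie side by side on the minus strand of chromosome 4 of mm9, C1qb from 136436044 to 136442102, C1qc from 136445719 to 136448980 and C1qa from 136451832 to 136454718, each with 3 exons. Their upstream sequences are shown because the 3 genes have the highest levels among the members. The 100 bases before each annotated start are printed along the gene's strand, from chr4:136454719-136454818 for C1qa, chr4:136442103-136442202 for C1qb and chr4:136448981-136449080 for C1qc. Capitals mark a PU box (GAGGAA, on either strand, where it reads TTCCTC if opposite), a core of sites bound by the myeloid factor PU.1, or a GAS element (TTCNNNGAA), the kind of site bound by STAT proteins.
C1qa: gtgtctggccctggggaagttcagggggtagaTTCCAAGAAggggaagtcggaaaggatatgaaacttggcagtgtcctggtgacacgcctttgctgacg
C1qb: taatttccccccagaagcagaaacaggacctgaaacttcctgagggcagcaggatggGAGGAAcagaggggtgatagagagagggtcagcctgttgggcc
C1qc: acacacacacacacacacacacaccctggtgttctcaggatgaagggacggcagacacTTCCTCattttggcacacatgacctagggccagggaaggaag

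In the printed bases a PU box stood 43 to 38 bases before the start of C1qb, and 42 to 37 bases before that of C1qc on the opposite strand. C1qc held another match on the opposite strand, 239 to 234 bases before the start. Over 250 bases, C1qb and C1qc were the 2 of 9 members that held a PU box, as did 23.0% of 22227 promoters of that length. The GAS letters were found in C1qa and Cfb among the members and in 6.83% of promoters. These matches describe letters and do not show that a factor binds.

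C1qa stood at 224 and 264 FPKM in the WT libraries, 143 FPKM in KO replicate 1 and 8.06 FPKM in KO replicate 2. C1qb had 232 and 310 FPKM in WT skin, against 118 and 8.89 FPKM in KO skin. C1qc had 178 and 265 FPKM in WT skin, against 112 and 9.15 FPKM in KO skin. In each case both KO values were under both WT values, but the KO libraries differed from each other by far more than the WT libraries did. The log2 fold change was -2.76 (SE 1.27, adjusted p = 0.333) for C1qa, -2.97 (SE 1.15, adjusted p = 0.290) for C1qb and -2.69 (SE 1.12, adjusted p = 0.306) for C1qc. Without KO replicate 2 these values were -0.76, -1.17 and -0.95.

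The proportions of the chains varied less than their levels. C1qa over C1qb was 0.966 and 0.853 in WT and 1.21 and 0.906 in KO libraries, and C1qc over C1qb was 0.767 and 0.854 in WT and 0.946 and 1.03 in KO libraries, higher in both KO libraries than in either WT library. Against Adgre1, which encodes the macrophage protein F4/80, C1qb stood at 14.3 and 15.3 in WT and at 13.8 and 10.6 in KO libraries, lower in both. These ratios do not depend on the scaling of the libraries, and each moved far less than the C1q level itself. Adgre1 is 1 of the 12 macrophage markers and stood at 0.837 FPKM in KO replicate 2. Ratios to the other markers were not taken. In KO replicate 1, Cd68 stood at -1.49 and Cd14 at -3.28 log2 units from their WT means, below C1qb at -1.17, whereas Mrc1 stood above it at -0.10.

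C3, the component on which all pathways meet, and Cfb, the protease subunit of the alternative C3 convertase, lie on chromosome 17, C3 from 57343397 to 57367559 with 41 exons and Cfb from 34993319 to 34999463 with 18 exons. Their upstream sequences, chr17:57367560-57367659 for C3 and chr17:34999464-34999563 for Cfb of mm9 (minus strand, printed along the gene), are shown because both genes are known to respond to inflammatory cytokines through elements of these kinds. In C3 the capitals mark a C/EBP-type match (TTGCNNAA, both strands searched) 45 to 38 bases before the start, and in Cfb they mark GAS letters 43 to 35 bases before it.
C3: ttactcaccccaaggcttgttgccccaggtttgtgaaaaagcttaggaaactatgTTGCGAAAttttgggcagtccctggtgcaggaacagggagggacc
Cfb: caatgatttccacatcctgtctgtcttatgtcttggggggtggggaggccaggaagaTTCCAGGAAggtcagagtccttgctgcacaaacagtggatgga

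The C/EBP-type letters were found in C3 alone among the members and in 9.08% of promoters. C4b and Cfp held none of the 3 motifs in this window, and neither did C3ar1 or C5ar1.

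C3 had 81.5 and 263 FPKM in WT skin, against 99.4 and 4.19 FPKM in KO skin. C4b, which supplies the C4 of the classical and lectin pathways, had 40.3 and 130 FPKM in WT skin, against 64.9 and 6.31 FPKM in KO skin. Cfb had 43.9 and 159 FPKM in WT skin, against 41.0 and 1.87 FPKM in KO skin. For C3 and C4b the groups overlapped, since KO replicate 1 lay between the WT libraries, and for Cfb it lay just under the lower WT library.

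What set these 3 genes apart from the other members was the spread between the WT libraries. WT replicate 2 exceeded WT replicate 1 by 3.23-fold for C3, 3.24-fold for C4b and 3.62-fold for Cfb, against 0.99 to 1.53 for the other 6 members. The log2 fold changes were -2.69 for C3 (SE 1.45, adjusted p = 0.378), -1.75 for C4b (SE 1.14, adjusted p = 0.441) and -2.95 for Cfb (SE 1.36, adjusted p = 0.333). Without KO replicate 2 they were -0.56, -0.16 and -1.01, and without WT replicate 2 C4b was at -0.91. The C4b transcript shares 35.2% of its 50-base windows and 8.26% of its 150-base windows with its paralog C4a, so fragments could have been split between them and the C4b values are uncertain. Exons of Cfb overlap those of Gm20547 on the same strand, which makes its values uncertain in the same way.

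The ratio of C3 to C4b was 2.02 in both WT libraries, 1.53 in KO replicate 1 and 0.664 in KO replicate 2. Cfb over C3 was 0.539 and 0.604 in WT and 0.413 and 0.446 in KO libraries. Both KO values of either ratio were under both WT values. KO replicate 2 held 2.43% of the WT mean of C3 and 7.39% of that of C4b.

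Properdin, the plasma protein that stabilises the alternative C3 convertase, is made by myeloid cells, and its gene Cfp lies on chromosome X from 20502580 to 20508681 with 9 exons. It had 46.8 and 68.6 FPKM in WT skin, against 30.8 and 4.41 FPKM in KO skin. The groups did not overlap, and the log2 fold change was -2.14 (SE 0.85, adjusted p = 0.294), or -0.86 without KO replicate 2.

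The receptor genes were the lowest members in every library and those with the lowest shares of the WT mean in KO replicate 1. C3ar1, the receptor of C3a, lies on chromosome 6 from 122797156 to 122806179, and C5ar1, the receptor of C5a, on chromosome 7 from 16832092 to 16844889, each with 2 exons. C3ar1 had 25.9 and 25.7 FPKM in WT skin, 6.82 FPKM in KO replicate 1 and 0.548 FPKM in KO replicate 2. C5ar1 had 16.6 and 25.4 FPKM in WT skin, against 5.93 and 0.579 FPKM in KO skin. Each receptor was lower in both KO libraries than in either WT library, and KO replicate 1 alone stood at 26.4% of the WT mean for C3ar1 and 28.3% for C5ar1.

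The log2 fold change was -2.95 for C3ar1 (SE 0.77, unadjusted p = 0.0115, adjusted p = 0.248 by limma) and -2.70 for C5ar1 (SE 0.73, unadjusted p = 0.0134, adjusted p = 0.248). Without KO replicate 2 the values were -1.78 and -1.63, with adjusted p = 0.097 and 0.163 by limma. Relative to the median level of the macrophage markers, the fold changes from all libraries were -1.04 for C3ar1 (SE 1.34, unadjusted p = 0.438 by limma) and -0.80 for C5ar1 (SE 1.33, unadjusted p = 0.551). The KO replicate 2 values rest on few reads, by the estimated depth about 30.2 fragments for C3ar1 and 18.8 for C5ar1, and the pseudocount of 1 understates fold changes at such levels. The ratio of C3ar1 to Adgre1 was 1.60 and 1.27 in WT and 0.795 and 0.655 in KO libraries, without overlap like that of C1qb to Adgre1, whereas C3ar1 over C5ar1 overlapped between the groups. Ratios of C3ar1 to the other macrophage markers were not taken. In KO replicate 1, Cd14 stood at -3.28 log2 units from its WT mean, below C3ar1 at -1.78, and Fcgr1 stood above it at -1.54.

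**Figure D2:**
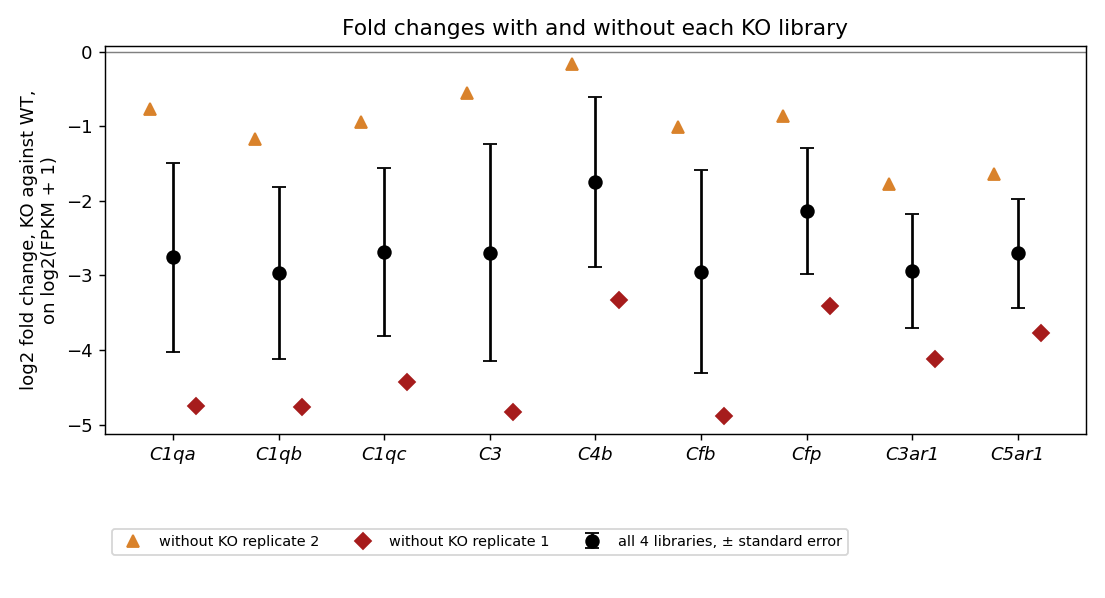
Log2 fold change (KO against WT) of each member on the log2(FPKM + 1) scale from all 4 libraries with its standard error (black), and without KO replicate 2 (triangles) or without KO replicate 1 (diamonds). All values lie below 0, from -0.16 for C4b without KO replicate 2 to -4.89 for Cfb without KO replicate 1, but C4b and Cfp reverse relative to adipocyte markers and C4b relative to macrophage markers. These reversed values are smaller than their standard errors.

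Of 45 other complement genes followed in the table, 18 were tested, 15 had a fold change below 0 and 3 above, with a median of -1.02. None of them passed the adjusted threshold, and at the unadjusted one 2 passed as lower, Itgam and Itgb2, which encode the chains of complement receptor 3. In KO replicate 1 alone the median was -0.08, and in KO replicate 2 alone it was -2.07. KO replicate 2 was the lowest library for 15 of the 18.

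The classical pathway proteases had no clear place in KO replicate 1. C1ra, which encodes C1r, had 12.7 and 25.0 FPKM in WT skin, against 20.2 and 1.50 FPKM in KO skin, and C1s1, for the protease C1s, had 24.9 and 24.7 FPKM in WT skin, against 34.5 and 5.30 FPKM in KO skin. C2, the protease subunit of the classical convertase, had 8.73 and 23.0 FPKM in WT skin, against 9.28 and 1.59 FPKM in KO skin. None of the 4 tested classical genes outside the members was lower without overlap. The paralog C4a reached at most 2.14 FPKM and was not tested.

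In the lectin pathway 4 of 9 genes were tested, and their median was -0.35, with 0.51 in KO replicate 1 alone and -0.78 in KO replicate 2 alone. The ficolin gene Fcna had 5.44 and 4.14 FPKM in WT skin, against 9.13 and 0.337 FPKM in KO skin, and the protease gene Masp1 had 1.31 and 1.30 FPKM in WT skin, against 1.09 and 0.373 FPKM in KO skin. Mbl1, Mbl2 and Fcnb were listed at 0 in every library. Of the terminal pathway, 7 genes were in the table and 0 reached the level for a test, and Hc, the gene of C5, was at 0.0128 to 0.0499 FPKM. C9, a component of the terminal pore, went the other way, with 0.0691 and 0.0837 FPKM in WT skin, against 0.307 and 2.60 FPKM in KO skin.

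Cfd, the factor D that cleaves factor B, was the highest complement gene in every library. It had 1642 and 4123 FPKM in WT skin, against 1874 and 102 FPKM in KO skin, with a log2 fold change of -2.57 (adjusted p = 0.380). Like C3, it was higher in WT replicate 2 than in WT replicate 1, and KO replicate 1 lay between them. Cfd over C3 was 20.2 and 15.7 in WT and 18.8 and 24.3 in KO libraries.

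Among the soluble regulators, Serping1, the C1 inhibitor, had 86.7 and 132 FPKM in WT skin, against 103 and 6.45 FPKM in KO skin, and Clu, clusterin, had 144 and 403 FPKM in WT skin, against 206 and 48.9 FPKM in KO skin. Vtn, vitronectin, had 6.00 and 6.37 FPKM in WT skin, against 3.92 and 0.432 FPKM in KO skin, and was the 1 of the 3 tested whose groups did not overlap. Of the soluble regulators too low for a test, Cpn1 and Susd4 were higher in KO skin without overlap, at 0.671 FPKM or less. The median of the 3 soluble regulators tested was -1.44, with -0.22 in KO replicate 1 alone and -2.33 in KO replicate 2 alone, and 0 of them passed the unadjusted threshold. The 3 membrane regulators tested had medians of 0.10 and 0.01 in the same libraries, and the difference between the lists was not tested. Cd55, which speeds the decay of convertases, had 12.5 and 12.6 FPKM in WT skin, against 14.7 and 12.7 FPKM in KO skin, Cd59a, which blocks the terminal pore, had 25.0 and 20.0 FPKM in WT skin, against 24.0 and 30.1 FPKM in KO skin, and Cr1l, or Crry, had 15.7 and 14.5 FPKM in WT skin, against 14.0 and 14.3 FPKM in KO skin.

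Of the 6 other receptor genes, 3 were tested, and their values in KO skin were below those in WT skin. Itgam had 37.5 and 35.7 FPKM in WT skin, against 6.30 and 0.550 FPKM in KO skin (log2 fold change -3.48, SE 0.74, adjusted p = 0.248 by limma), and Itgb2 had 53.6 and 54.6 FPKM in WT skin, against 7.79 and 0.906 FPKM in KO skin (-3.75, SE 0.73, adjusted p = 0.248). Itgax, the alpha chain of complement receptor 4, had 6.53 and 2.27 FPKM in WT skin, against 1.99 and 0.664 FPKM in KO skin. The groups did not overlap for any of the 3, although the fold change of Itgax, at -1.15, was smaller than those of C3ar1 and C5ar1, and its KO replicate 1 lay just under WT replicate 2. C5ar2, Cr2 and Vsig4 stayed under 1 FPKM in every library and were not tested, and for Vsig4 KO replicate 1, at 0.620 FPKM, was above both WT libraries.

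**Figure D3:**
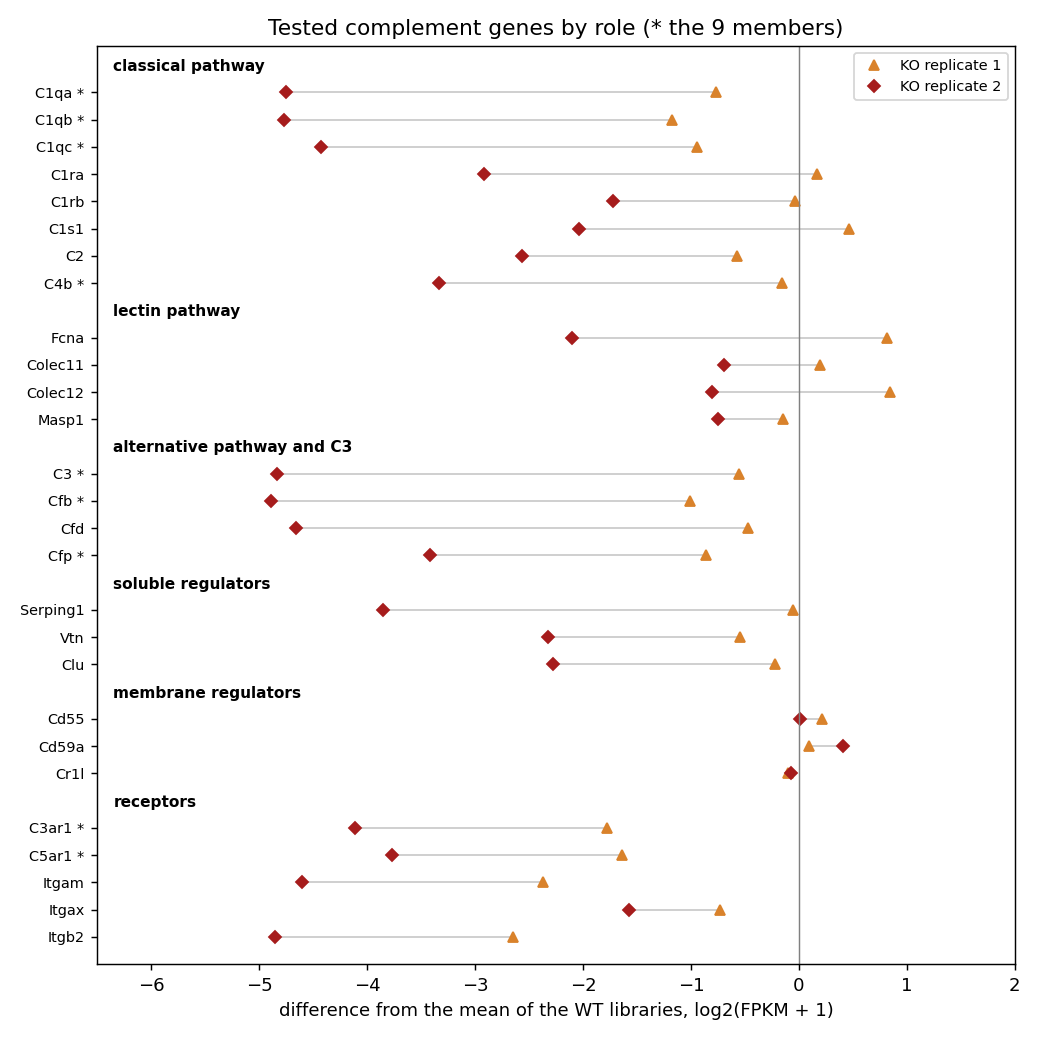
Difference of each KO library from the mean of the WT libraries on the log2(FPKM + 1) scale for the 27 tested complement genes, grouped by role, with triangles for KO replicate 1, diamonds for KO replicate 2 and asterisks for the 9 members. The receptors are the role group whose triangles lie farthest below 0, and the membrane regulators stay near 0 in both KO libraries, while C4b and Cfp reverse sign relative to adipocyte markers and C4b relative to macrophage markers. These reversed values are smaller than their standard errors.

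Markers of cell types that skin can hold differed between the libraries too. All 12 macrophage markers were tested and 12 had a fold change below 0, 9 without overlap and 7 at the unadjusted threshold, with a median of -2.14. Their summed level was 1560 and 1460 FPKM in WT, 550 FPKM in KO replicate 1 and 82.9 FPKM in KO replicate 2. Taken as the median over genes of each gene's log2 difference from its own WT mean, they stood at -1.13 in KO replicate 1 and -3.35 in KO replicate 2. The C1q genes stood at -0.95 and -4.75, Cfp at -0.86 and -3.41, and the receptors at -1.71 and -3.94, so of these group medians only that of the receptors was below the macrophage median in both KO libraries, as was the single gene C1qb at -1.17 and -4.77. The part of macrophage content in these values was not tested, and in bulk skin fewer cells of a type and less RNA per cell cannot be told apart.

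Adipocyte markers shared with C3, C4b and Cfb a large spread between the WT libraries. The sum of the 6 markers was 2122 and 5888 FPKM in WT skin, against 2531 and 224 FPKM in KO skin, and the median difference of WT replicate 2 from WT replicate 1 was 1.58 log2 units, beside 1.68 for C3, C4b and Cfb. Relative to the WT mean the median stood at -0.50 and -4.03 in the KO libraries, beside -0.56 and -4.83 for the 3 genes. In KO replicate 1, 2 of the 6 markers (Adipoq and Retn) were below both WT libraries, Lep was above both, and the other 3 lay between them, whereas 6 of 6 were below both in KO replicate 2. The part of adipocyte content in their values was not tested.

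Both KO libraries also differed from WT skin in markers of other cell types. The 7 hair follicle markers had the largest shift in KO replicate 1, where they summed to 314 FPKM, against 9.45 and 1.54 FPKM in WT skin and 17.7 FPKM in KO replicate 2, and 4 of the 7 were higher in KO skin without overlap. The share of all tested genes higher without overlap was not taken, so this count has no background beside it. Relative to the WT mean, the median of the fibroblast markers was 0.81 in KO replicate 1 and -2.56 in KO replicate 2, that of the endothelial markers 0.03 and -2.61, that of the mast cell markers 0.52 and -1.85, and that of the keratinocyte markers 1.54 and -0.51. The keratinocyte markers went both ways in KO replicate 2, where Krt5 and Krt14, of the basal layer, were above both WT libraries and 3 of the 6 were below both. Skeletal muscle markers summed to 19954 and 18908 FPKM in WT skin, against 12235 and 12493 FPKM in KO skin, lower in both KO libraries than in either WT library. Neutrophil markers, of cells that also carry C5ar1, summed to 12.5 and 18.2 FPKM in WT skin, against 9.57 and 4.14 FPKM in KO skin, with a median difference of -0.04 and -0.15 from the WT mean. Of these 9 markers, 5 were under 1 FPKM in every library, where this scale keeps differences near 0. The 3 tested had a median log2 fold change of -1.25, and 2 of them lay lower without overlap, against 20.5% of all tested genes. In KO replicate 1, 5 of the 9 neutrophil markers were below both WT libraries and 3 (Camp, Ltf and Elane) were above both, and the defining marker Ly6g was at 0 in both KO libraries and at most 0.24 FPKM in WT. The 6 T cell markers stood at a median of 0.06 and -0.60 from the WT mean, and 5 were below both WT libraries in KO replicate 2. KO replicate 2 was thus low in fibroblast, endothelial, mast cell, adipocyte and macrophage markers at once. KO replicate 1 was above both WT libraries for 7 of 7 hair follicle, 6 of 6 keratinocyte, 9 of 9 fibroblast and 4 of 6 mast cell markers. The part of the sampled tissue in the complement values of either library was not tested.

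**Figure D4:**
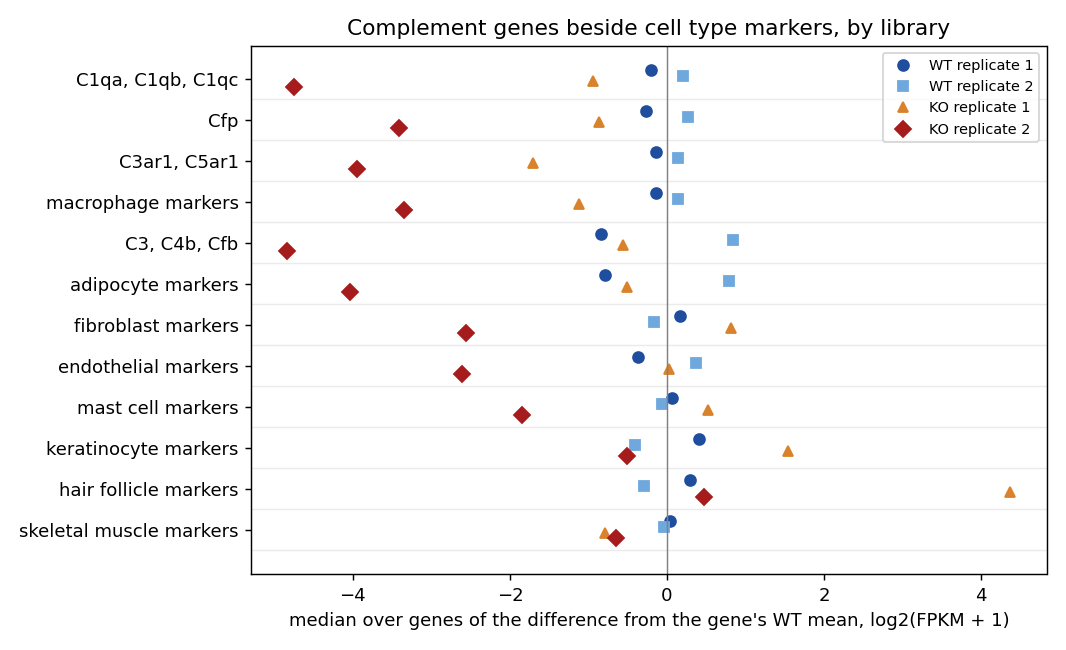
Median over the genes of each group of complement members or list of cell type markers of the gene's difference from its own mean in the 2 WT libraries, on the log2(FPKM + 1) scale, with 1 point per library. C1q, Cfp and receptor genes and macrophage markers have close WT points, but in KO replicate 2 C1q (-4.75) and the receptors (-3.94) lie below the macrophage markers (-3.35). C3, C4b and Cfb and the adipocyte markers have WT points 1.68 and 1.58 apart, whereas C4b and Cfp themselves reverse sign relative to adipocyte markers and C4b relative to macrophage markers. These reversed values are smaller than their standard errors.

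Levels of the members were compared with those of 13026 other tested genes by the Euclidean distance between their centred log2(FPKM + 1) values over the 4 libraries, a description that rests on few points. C1qb and C1qc lay nearest to Laptm5, a lysosomal membrane protein of leukocytes, at 0.308 and 0.284, and next to each other at 0.315, followed by Cyba, an NADPH oxidase subunit, for C1qb and Fcer1g, the common Fc receptor chain, for C1qc. C1qa lay nearest to C1qb at 0.372, then to Eif3j1, whose near-identical copy Eif3j2 makes its values uncertain, and to C1qc at 0.438.

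C3 lay nearest to Hp (haptoglobin) at 0.238, then to Cfd at 0.285 and Trf (transferrin) at 0.307. Cfb lay at 0.098 from Trf, which had 121 and 433 FPKM in WT skin, against 122 and 6.68 FPKM in KO skin, and then came Hp and Retn (resistin). C4b lay nearest to Cidec and Fabp4, proteins of fat storage, at 0.356 and 0.371, and to Col4a1, a basement membrane collagen.

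Cfp lay nearest to Emilin2 at 0.143, then to Aif1 and Adgre1, both from the macrophage marker list. C3ar1 lay nearest to Ifitm6, Mpeg1 (perforin-2 of phagocytes) and Pf4, at 0.245, 0.250 and 0.315. C5ar1 lay at 0.107 from Fcgr1, the high-affinity IgG receptor on the macrophage list, which had 16.0 and 24.1 FPKM in WT skin, against 6.08 and 0.644 FPKM in KO skin, and next to Pirb and Emp3.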

How the data were processed

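Skin RNA was sequenced from 2 WT and 2 GSDMD KO libraries. Per the processing notes, reads were aligned with HISAT2 2.0.1 to mm9 and assembled with StringTie 2.0.6, and the study's methods describe gene counting with featureCounts. The deposited table is named as counts but holds FPKM, in which the authors had divided fragments by transcript length and library depth, since 99.993% of the values above 0 are not whole. No count model was therefore used, and depth is known only approximately, from the step that 1 fragment gives in 2591 genes. The 13027 of 24441 genes that reached 1 FPKM in 2 or more libraries were fitted as log2(FPKM + 1) with limma 3.58.1 in R 4.3.3, with genotype as the only term, a mean-variance trend and Benjamini-Hochberg adjustment over all of them. The scale understates fold changes of low genes. The fit was also run on simulated data in which each gene had the same spread in all libraries. KO replicate 2 stood apart in the real data, so that run cannot vouch for the p-values given here. Tables were made with Python 3.11.15 and pandas 2.3.3.

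The members, the complement and marker lists and the tests were chosen with earlier results of these data known. Genes named are the members, the genes of those lists, Gsdmd and, for each member, the 3 tested genes with the smallest Euclidean distance. Positions and the 250 bases before each start come from the mm9 genome with GENCODE M1. Alternatives were other scalings, pseudocounts, filters, a fit without the trend, a replicate block, leaving out each library and centring on marker lists. 1 complement gene is not reported here and was left out of the lists.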

Additional observations from a re-analysis of the deposited data

How the results depend on the processing

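All 9 members kept a log2 fold change below 0 under the scalings, pseudocounts, filters, trend setting, replicate block and omission of each library that were tried. Centring each library on a marker list changed this for C4b, at 0.16 (SE 1.39) with the macrophage list and 0.61 (SE 2.58) with the adipocyte list, and for Cfp, at 0.22 (SE 2.59) with the adipocyte list. With the fibroblast and the skeletal muscle lists all members stayed below 0. The adipocyte and skeletal muscle centrings and the crossed block were chosen after seeing the data. The other members stayed between -1.06 and -0.23 with the macrophage list and between -0.61 and -0.33 with the adipocyte list. The cause was not tested. C1qb, C3ar1 and C5ar1 no longer passed the unadjusted threshold with the macrophage, fibroblast or adipocyte list, and the other members did not pass it either. With the macrophage list they stood at -1.06 (SE 1.40) for C1qb, -1.04 (SE 1.34) for C3ar1 and -0.80 (SE 1.33) for C5ar1. With the skeletal muscle list C3ar1 (-2.56, SE 0.90) and C5ar1 (-2.32, SE 0.87) still passed it, and C1qb did not.

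The number of members lower at an unadjusted p under 0.05 was 3, 5 with scaling to the upper quartile (697 of all tested genes), 5 with median-ratio factors (708) and 8 with the replicate block. It was 2, with C1qb lost, with a pseudocount of 0.5 (591 of all tested genes) or 0.1 (577), no filter (434), a filter on the mean (529) or libraries scaled to an equal sum (627). Leaving out 1 library moved it from 1 (without WT replicate 2) to 9 (without KO replicate 1). Over all tested genes the same omissions gave 242 (without WT replicate 2) to 1605 genes (without KO replicate 1) lower at the unadjusted threshold, 333 without KO replicate 2, beside 539 with all libraries, and 0 to 2058 genes at the adjusted one, with 43 without KO replicate 2.

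Same-numbered libraries did not deviate together (correlation -0.20 over 13027 genes), and nothing in the labels or methods ties the numbers to litters or batches, so the 8 members and the 686 genes lower under the replicate block do not come from a known pairing. The crossed pairing gave 8 members and 681 genes. Under both, 0 genes passed the adjusted threshold. The median of the other complement genes was -1.02, and -0.08 with no filter, which adds genes near 0. Depth limits C3ar1 and C5ar1 most, at 0.548 and 0.579 FPKM in KO replicate 2.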
